A study of Mus musculus with 8 samples.

Results

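The genes described here are 9 growth factor genes: the platelet-derived growth factor (PDGF) genes Pdgfa, Pdgfb and Pdgfc, the vascular endothelial growth factor (VEGF) genes Vegfa and Vegfb, the epidermal growth factor (EGF) family genes Hbegf, Areg and Tgfa, and the progranulin gene Grn. They were picked by gene symbol, from a list drawn up with earlier results of these data known. All 9 were found among the 48440 genes of the deposited table. Their transcripts were measured by RNA sequencing in islet macrophages of the pancreas, sorted for CD11b and F4/80. The HFD group had 4 libraries (replicates 5 to 8) from male wild-type C57BL/6J mice fed a high-fat diet with 45% fat, 20% protein and 35% carbohydrate (19.67 kJ/g). The chow group had 4 libraries (replicates 1 to 4) from male wild-type C57BL/6J mice fed chow with 8% fat, 21% protein and 71% carbohydrate (10.88 kJ/g). Both diets ran for 8 weeks from 8 weeks of age, the mice were 16 weeks old at collection, and each library pooled the islets of 2 mice. The unit of replication is thus a pool and not a mouse.

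PDGF ligands are secreted dimers that signal through the receptor tyrosine kinases PDGFR-alpha and PDGFR-beta, mainly on fibroblasts, stellate cells and pericytes, and PDGF signalling is also known to drive replication of young beta cells. VEGF ligands act on endothelial receptors and keep the dense capillary bed of the islet, for which the beta cell itself is a main source of VEGF-A. EGF-family ligands are made as membrane-bound precursors that ADAM proteases cut free, and they signal through EGFR and its ERBB relatives. Progranulin is a secreted and lysosomal glycoprotein made of granulin repeats. It belongs to none of the 3 families and is best known from macrophages and microglia, where its loss disturbs the lysosome.

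Library totals ran from 4532503 to 5917920 counts in HFD and from 4288665 to 6391247 in chow. Levels are given as CPM, counts scaled to a common library total after TMM scaling. Where a library has 0 counts of a gene, its level could still be up to 0.521 to 0.632 CPM in HFD libraries and 0.468 to 0.708 CPM in chow libraries, taken as 3 counts, and these limits cover counting error only. The sorted cells carried the macrophage identity of their label: all 12 macrophage markers had counts, and their summed level was 5910 to 6989 CPM in HFD and 5985 to 7853 CPM in chow libraries. Transcripts of other pancreatic cells were present as well. The 16 stellate cell, fibroblast and pericyte markers summed to 461, 291, 245.5 and 106 CPM in HFD replicates 5 to 8, against 24.04, 80.9, 138 and 91.3 CPM in chow replicates 1 to 4; 15 of the 16 had counts and Loxl1 was at 0. The 10 beta cell markers summed to 643 to 1013 CPM in HFD and 398.5 to 1036 CPM in chow, with Mafa at 0. The 14 endothelial markers summed to 1.00 to 21.9 CPM in HFD and 2.12 to 24.9 CPM in chow, with Flt1, Emcn, Esam, Cldn5, Robo4 and Erg at 0 in all 8 libraries. The 9 platelet and megakaryocyte markers, of interest because platelets carry PDGF, summed to 5.62 to 24.2 CPM in HFD and 2.36 to 19.4 CPM in chow, with Ppbp, Gp1bb, Gp9, Gp6, Itgb3 and Tubb1 at 0. Fewer cells of a type and less RNA per cell cannot be told apart in these pooled samples.

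The upstream sequences of 4 of the genes are shown because these genes span the range of levels, with Grn the most abundant, Vegfb and Vegfa low, and Areg at 0 throughout. They are RefSeq windows of GRCm38.p6, printed 5′ to 3′ on the strand of the gene and limited to bases before the transcription start site and outside annotated exons. Capitals mark matches on either strand: the E-box CANNTG in Grn; the GC box GGGCGG and the PU.1-type ETS core GAGGAA in Vegfa; the GC box in Vegfb; and the GC box, the TATA box TATAAA, the ETS core and the cyclic AMP response core TGACG in Areg, where overlapping matches run together.
Grn, chr11:102430257-102430314, + strand: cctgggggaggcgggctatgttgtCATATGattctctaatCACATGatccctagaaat
Vegfa, chr17:46032378-46032457, - strand: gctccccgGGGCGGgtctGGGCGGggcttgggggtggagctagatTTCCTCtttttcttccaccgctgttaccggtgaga
Vegfb, chr19:6987742-6987841, - strand: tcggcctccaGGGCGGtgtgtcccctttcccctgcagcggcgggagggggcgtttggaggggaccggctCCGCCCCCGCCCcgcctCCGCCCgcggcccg
Areg, chr5:91139469-91139598, + strand: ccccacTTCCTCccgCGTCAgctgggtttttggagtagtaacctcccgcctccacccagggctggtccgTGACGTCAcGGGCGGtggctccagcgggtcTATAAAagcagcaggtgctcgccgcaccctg

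In whole 300-base windows around the start site, 7 of the 9 genes had an entry, with 9 windows in all because Pdgfa and Vegfa have 2 each. The GC box was in 8 of these 9 windows, against 35.7% of all 32851 windows; their GC content was 55.0% to 75.3%, against a median of 52.7%. The TATA box was in Areg alone, against 13.6% of all windows. The core TGACG was in Areg with 3 matches, in 1 Pdgfa window and in 1 Vegfa window, against 20.8% of all windows. The E-box was in Grn with 3 matches, in Areg, in Tgfa, in Vegfb and in 1 Vegfa window, against 72.3% of all windows, and the ETS core in Areg, Grn, Pdgfc, 1 Pdgfa and 1 Vegfa window, against 28.3%. Of the other motifs searched, the hypoxia response core ACGTG was in 1 Vegfa window (19.6% of all windows). The E-box core CACGTG (7.15% of all windows) and the AP-1 site TGANTCA (7.81%) were in none of the 9 windows. A match is a run of letters in this window and does not show that a factor binds there.

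Of the 9 genes, progranulin dominated the set and the 3 EGF-family ligands were at or near 0. The PDGF and VEGF genes lay between these and, apart from Pdgfb, varied widely among libraries of at least 1 diet. The counts of 6 genes were high enough for the edgeR quasi-likelihood test, which the filter on low counts decided over both diets; Hbegf, Areg and Tgfa were left out. None of the 6 differed between HFD and chow at an adjusted p under 0.05, and the background was the same, with 0% of the 10129 tested genes called. At an unadjusted p under 0.05 there were 0 of the 6, against 5.35% of all tested genes, and DESeq2 called 0 of them, against 0.279% of 10019 genes. Of the 6 fold changes 2 were above 0 (Grn and Pdgfc) and 4 below, with a median log2 fold change, HFD over chow, of -0.40. Over all tested genes 4925 were above 0 and 5204 below, with a median of -0.02. The CPM ranges of the 2 diets overlapped for all 6 tested genes, and they did not overlap for 3.39% of all tested genes. At that share, an overlap of all 6 is no contrast with the background. Hbegf and Areg, at 0 in every library, overlap by definition, and Tgfa was at 0 in libraries of both diets.

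**Figure D1:**
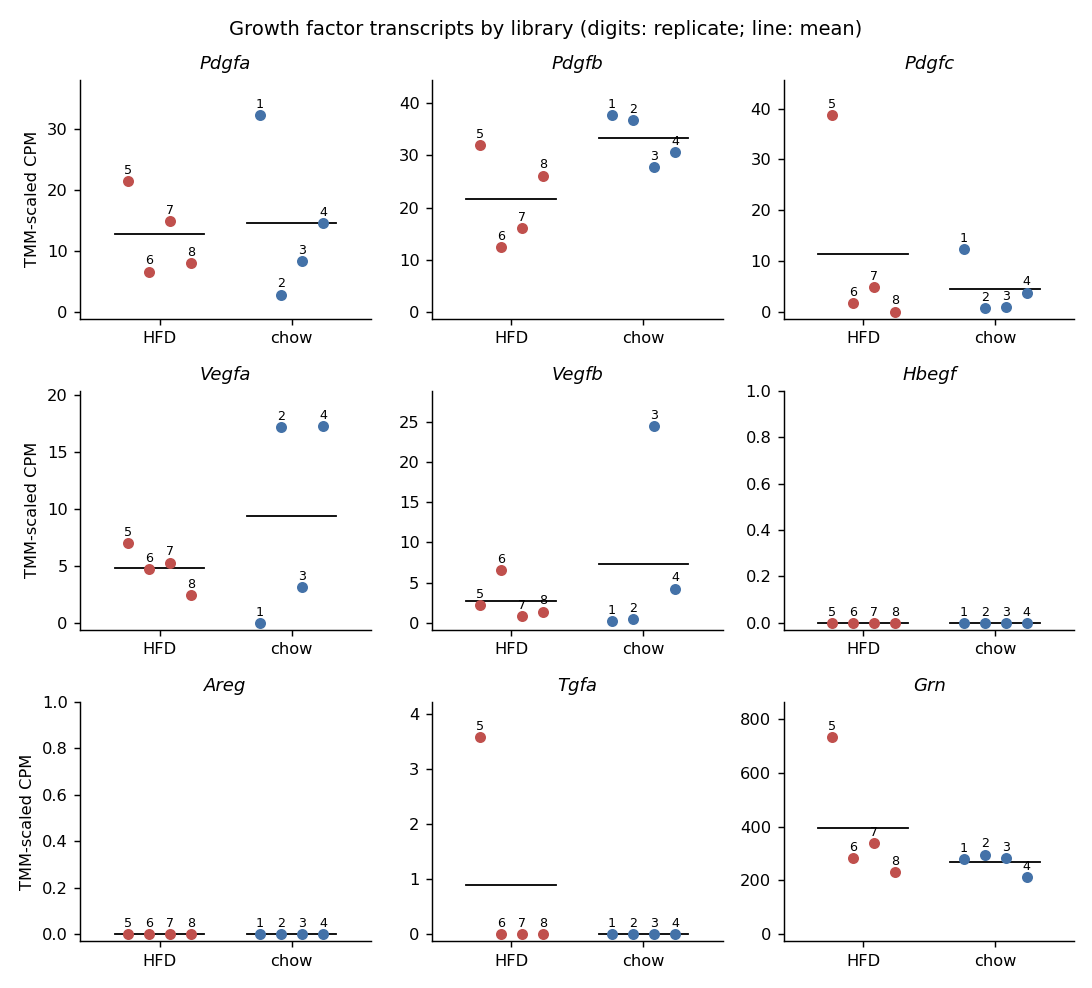
TMM-scaled CPM of each of the 9 growth factor genes in every library, with HFD in red on the left and chow in blue on the right; digits give the replicate and lines the group mean. Each panel has its own linear scale. HFD replicate 5 stands above the other libraries for Grn (733 CPM), Pdgfc (38.7 CPM) and Tgfa (3.58 CPM), and Hbegf and Areg are at 0 throughout.

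Pdgfb (chromosome 15, 79995874 to 80014977, minus strand) encodes the B chain, the ligand chain that binds PDGFR-beta and draws pericytes to vessels. Its level was 31.98, 12.3, 16.0 and 26.1 CPM in HFD replicates 5 to 8, against 37.7, 36.8, 27.8 and 30.7 CPM in chow replicates 1 to 4. HFD replicates 6, 7 and 8 lay below every chow library, and HFD replicate 5 lay within the chow range. The means were 21.6 ± 9.04 CPM in HFD and 33.3 ± 4.82 CPM in chow (SD, n = 4 each), from 438 counts over the HFD libraries and 668 over the chow libraries. The log2 fold change was -0.62 (SE 0.58, 95% interval -1.84 to 0.59), and the edgeR adjusted p was 0.987. It kept its sign under all 20 alternatives tried, between -0.87 and -0.37. Over all 8 libraries the SD of log2(CPM + 1) of Pdgfb was 0.55, against a median of 0.85 among the 2459 tested genes with a mean of 20 to 50 CPM. The microRNA gene Mir7213 lies within the Pdgfb locus on the same strand, without overlap of exons.

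Pdgfa (chromosome 5, 138976014 to 138997370, minus strand) encodes the A chain, which acts through PDGFR-alpha on mesenchymal cells. It was at 21.5, 6.599, 15.0 and 8.03 CPM in HFD replicates 5 to 8, against 32.3, 2.81, 8.29 and 14.6 CPM in chow replicates 1 to 4. The HFD values all fell inside the chow range, whose highest library was 11.5 times its lowest. Means were 12.8 ± 6.85 CPM in HFD and 14.5 ± 12.8 CPM in chow (SD, n = 4 each). The edgeR log2 fold change of -0.18 (SE 0.90, 95% interval -2.07 to 1.70, adjusted p = 0.987) had no stable sign: without chow replicate 1 it was 0.57. Exons of Pdgfa overlap the antisense gene 6330403L08Rik, and no strand setting is given in the sources used here, so reads of the 2 cannot be told apart.

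Pdgfc (chromosome 3, 81036416 to 81214040, plus strand) encodes a ligand of PDGFR-alpha that is secreted in latent form and needs proteolytic activation. It had 38.7, 1.74, 4.85 and 0 CPM in HFD replicates 5 to 8, against 12.4, 0.781, 0.8293 and 3.78 CPM in chow replicates 1 to 4. HFD replicate 5 alone held 195 of the 228 HFD counts, and chow replicate 1 held 55 of the 80 chow counts. The means, 11.3 ± 18.4 CPM in HFD and 4.44 ± 5.46 CPM in chow (SD, n = 4 each), were smaller than their SDs. With edgeR the log2 fold change was 1.35 (SE 1.43, 95% interval -1.64 to 4.35, adjusted p = 0.987), and without HFD replicate 5 it turned to -0.996 (SE 1.71). That library also had the highest stellate, fibroblast and pericyte sum, 461 CPM. Chow replicate 1, with the next highest Pdgfc level, had the lowest sum, 24.04 CPM. HFD replicate 6, with Pdgfc at 1.74 CPM, had a sum of 291 CPM. With this sum as a covariate the log2 fold change was 1.86 (SE 3.89). The part of those cells in the Pdgfc level was not tested. Exons of Pdgfc overlap the antisense gene Gm16000.

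Per kilobase of exon, which allows levels of different genes to be compared, Pdgfb averaged above Pdgfa in both diets, and Pdgfc was lowest. The means of Pdgfb and Pdgfa were closer in HFD than in chow. The mean levels in HFD were 5.19 ± 2.17 CPM per kb for Pdgfb, 4.09 ± 2.20 for Pdgfa and 2.23 ± 3.61 for Pdgfc (SD, n = 4). In chow they were 7.99 ± 1.16 CPM per kb for Pdgfb, 4.66 ± 4.11 for Pdgfa and 0.872 ± 1.07 for Pdgfc (SD, n = 4). Pdgfb gave the largest share of the summed PDGF level in 6 of the 8 libraries, and Pdgfa in HFD replicate 7 and chow replicate 1. The share of Pdgfb was 34.7%, 54.7%, 40.1% and 70.9% in HFD replicates 5 to 8, against 41.5%, 89.4%, 70.3% and 57.6% in chow replicates 1 to 4. In HFD replicate 5 the 3 genes were nearly equal, at 31.0% Pdgfa, 34.7% Pdgfb and 34.3% Pdgfc. The summed PDGF level was 22.2, 5.42, 9.60 and 8.85 CPM per kb in HFD replicates 5 to 8, against 21.9, 9.91, 9.50 and 12.8 CPM per kb in chow replicates 1 to 4. HFD replicate 5 and chow replicate 1 stood above all other libraries.

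**Figure D2:**
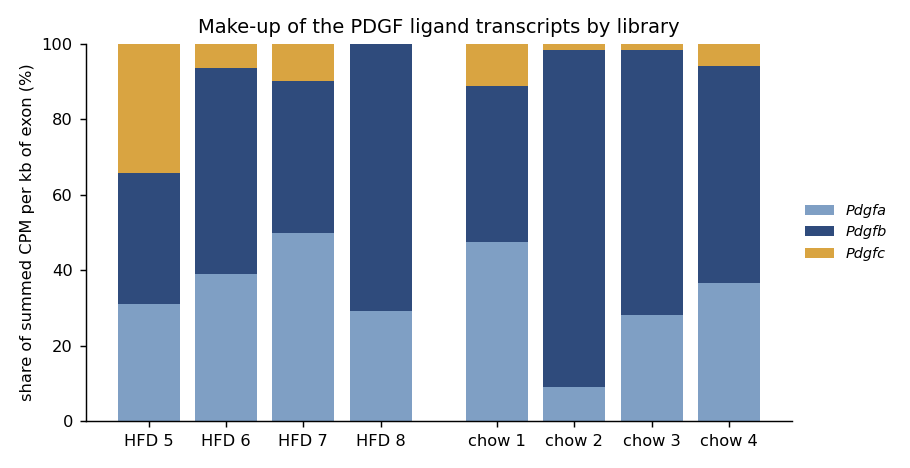
Share of Pdgfa, Pdgfb and Pdgfc in their summed CPM per kb of exon, in percent, for the 4 HFD libraries on the left and the 4 chow libraries on the right. Pdgfb runs from 34.7% to 70.9% in HFD and from 41.5% to 89.4% in chow, and Pdgfc reaches 34.3% in HFD replicate 5.

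The PDGF receptors, the targets of these ligands, were near the limit of detection in most libraries. Pdgfrb, the receptor of pericytes and activated stellate cells, was at 17.5, 6.08, 11.6 and 0.603 CPM in HFD replicates 5 to 8, against 0, 0, 2.49 and 0 CPM in chow replicates 1 to 4. HFD replicates 5 to 7 exceeded every chow library, and the 2 diets overlapped through HFD replicate 8. The log2 fold change was 3.80 (SE 1.68), which did not pass the threshold (edgeR adjusted p = 0.893). Pdgfra, the receptor that marks fibroblasts, had 4.77 CPM in HFD replicate 5, 4.34 CPM in HFD replicate 6 and 0 in HFD replicates 7 and 8 and in all chow libraries. Pdgfrl, a receptor-like gene, was at 0 throughout. Both Pdgfra and Pdgfrb belong to the stellate, fibroblast and pericyte list, whose sum was 106 to 461 CPM in HFD and 24.04 to 138 CPM in chow, and the part of those cells in the receptor levels was not tested. The fourth PDGF ligand gene, Pdgfd, was at 0 in all 8 libraries.

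Vegfa (chromosome 17, 46016993 to 46032369, minus strand) encodes the main ligand of the endothelial receptor VEGFR2. It was at 6.95, 4.69, 5.27 and 2.41 CPM in HFD replicates 5 to 8, against 0, 17.2, 3.11 and 17.2 CPM in chow replicates 1 to 4. The HFD libraries were close together, and the chow libraries reached from 0 to 17.2 CPM on both sides of them. The means were 4.83 ± 1.88 CPM in HFD and 9.38 ± 9.12 CPM in chow (SD, n = 4 each), with an edgeR log2 fold change of -0.95 (SE 1.28, 95% interval -3.63 to 1.72, adjusted p = 0.987). Its counts were 12 to 35 per library in HFD and 0 to 110 in chow.

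Vegfb (chromosome 19, 6982473 to 6987651, minus strand) encodes a ligand of VEGFR1 that has been linked to fatty acid uptake by endothelium. Its level was 2.18, 6.599, 0.843 and 1.41 CPM in HFD replicates 5 to 8, against 0.225, 0.468, 24.5 and 4.25 CPM in chow replicates 1 to 4. Chow replicate 3 held 118 of the 140 chow counts, and the HFD libraries fell within the chow range. Means were 2.76 ± 2.62 CPM in HFD and 7.35 ± 11.6 CPM in chow (SD, n = 4 each). The edgeR log2 fold change of -1.40 (SE 1.42, 95% interval -4.37 to 1.57, adjusted p = 0.987) turned to 0.76 (SE 1.62) without chow replicate 3. That library also had the highest endothelial sum, 24.9 CPM, and an acinar sum of 1837 CPM. HFD replicate 7 had an endothelial sum of 21.9 CPM and an acinar sum of 1919 CPM, with Vegfb at 0.843 CPM. The highest acinar sum, 3777 CPM, was in chow replicate 4, with Vegfb at 4.25 CPM. With the endothelial sum as a covariate the log2 fold change was -0.66 (SE 1.95). The part of other cells in the Vegfb level was not tested.

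The 2 other VEGF-family ligands with counts were each seen in 1 library. Vegfc, a lymphatic growth factor, was at 8.14 CPM in HFD replicate 5, and Pgf, placental growth factor, was at 6.23 CPM in HFD replicate 8. Both were at 0 in the other 7 libraries, and Vegfd was at 0 in all. Among the receptors, Flt1 (VEGFR1) was at 0 in all 8 libraries. Kdr (VEGFR2) averaged 2.27 ± 3.09 CPM in HFD and 1.40 ± 2.50 CPM in chow, and Flt4 (VEGFR3) 0.263 ± 0.527 CPM in HFD and 0.137 ± 0.161 CPM in chow (SD, n = 4 each). The co-receptor Nrp1, which binds VEGF-A and is made by macrophages as well as endothelium, was the abundant gene of this list, at 292 ± 87.9 CPM in HFD and 247 ± 83.3 CPM in chow (SD, n = 4 each), with a log2 fold change of 0.24 (SE 0.26, edgeR adjusted p = 0.987). Nrp2, a co-receptor for VEGF-C and semaphorins, was at 179, 38.4, 162 and 7.23 CPM in HFD replicates 5 to 8, against 18.7, 12.96, 9.54 and 43.0 CPM in chow replicates 1 to 4. HFD replicates 5 and 7 exceeded every chow library, while HFD replicate 8 was below every one. Its log2 fold change of 2.20 (SE 0.72) did not pass (edgeR adjusted p = 0.752).

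The EGF-family ligands were not detected in nearly all libraries at this depth. Hbegf (chromosome 18, 36504927 to 36515805), the heparin-binding ligand of activated macrophages, had 0 counts in all 8 libraries. By counting error alone that allows up to 0.0742 CPM over the 8, and loss of transcripts in library preparation is not covered. Areg (chromosome 5, 91139599 to 91148432), amphiregulin, a ligand of type 2 immunity and tissue repair, also had 0 counts in all 8. Tgfa (chromosome 6, 86195223 to 86275719), transforming growth factor alpha, had 18 counts in HFD replicate 5, or 3.58 CPM, and 0 in the other 7 libraries. Its exons overlap the gene model Gm43917 on the opposite strand. A level of 0 was common in these libraries, as 30471 of the 48440 genes had no count in any of them. Among the 503 protein-coding genes of chromosome 18, which holds Hbegf, 162 had none.

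Areg lies in a cluster of EGF-family genes on chromosome 5, and none of the cluster had a count. Epgn (91027464 to 91035215), Ereg (91074622 to 91093646), Areg and Btc (91357261 to 91402994) lie within 375.5 kb on GRCm38, and all 4 had 0 counts in all 8 libraries. Of the 8 other EGF-family ligands listed, 6 were at 0 throughout: Ereg, Btc, Epgn, Nrg1, Nrg2 and Nrg3. Egf, the founding ligand, was the 1 that could be tested, at 5.34 ± 6.93 CPM in HFD and 5.01 ± 5.78 CPM in chow (SD, n = 4 each), with a log2 fold change of 0.09 (SE 1.57, edgeR adjusted p = 0.997). Nrg4, a neuregulin, averaged 1.66 ± 1.92 CPM in HFD and 2.52 ± 1.99 CPM in chow (SD, n = 4 each). Exons of Egf and Nrg4 overlap genes on the opposite strand.

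Receptors for these ligands were also low. Egfr was at 20.7, 2.26, 14.1 and 1.21 CPM in HFD replicates 5 to 8, against 0, 0, 2.90 and 0.236 CPM in chow replicates 1 to 4. HFD replicates 5 and 7 exceeded every chow library and the other HFD libraries overlapped with chow; the log2 fold change of 3.57 (SE 1.61) did not pass (edgeR adjusted p = 0.893). HFD replicates 5 and 7 were also the 2 highest libraries for Pdgfrb and Nrp2. Their stellate, fibroblast and pericyte sums were 461 and 245.5 CPM, while HFD replicate 6 had a sum of 291 CPM with lower values of all 3 genes. Pdgfrb is itself a marker in that sum, and the part of those cells in the 3 genes was not tested. Erbb2 and Erbb4 were at 0 in all 8 libraries, and Erbb3 averaged 5.34 ± 4.48 CPM in HFD and 3.96 ± 5.07 CPM in chow (SD, n = 4 each). Among the inhibitors of the EGF receptor, Errfi1, an intracellular feedback inhibitor, was at 49.4 ± 17.6 CPM in HFD and 85.0 ± 26.3 CPM in chow (SD, n = 4 each; log2 fold change -0.78, SE 0.41, edgeR adjusted p = 0.945). Lrig1, which promotes receptor turnover, was at 2.55 ± 1.46 CPM in HFD and 4.29 ± 3.22 CPM in chow, and its relative Lrig3 at 1.74 ± 2.74 CPM in HFD and 0.354 ± 0.708 CPM in chow (SD, n = 4 each).

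Proteases that free EGF-family ligands differed widely in level, and the best known of them were abundant in both diets. Adam10 was at 463 ± 45.6 CPM in HFD and 450.2 ± 27.4 CPM in chow, and Adam17, the main sheddase of amphiregulin, TGF-alpha and HB-EGF, at 458 ± 23.1 CPM in HFD and 411 ± 90.2 CPM in chow (SD, n = 4 each). Their log2 fold changes were 0.04 (SE 0.17) and 0.16 (SE 0.19). Other ADAM genes of the list, named after their values were seen, were lower: Adam15 was at 20.2 ± 4.49 CPM in HFD and 28.1 ± 12.5 CPM in chow, Adam8 at 8.17 ± 7.97 CPM in HFD and 0.156 ± 0.312 CPM in chow, and Adam12 at 0.0497 ± 0.0993 CPM in HFD and 0 in chow (SD, n = 4 each). Nrd1, a metalloprotease that enhances shedding, was at 284 ± 58.3 CPM in HFD and 299.6 ± 80.0 CPM in chow (SD, n = 4 each). Of the 14 tested genes of the shedding and processing list 0 passed the threshold, with 8 above 0, 6 below and a median log2 fold change of 0.10, against -0.02 over all tested genes. The 3 with the smallest p were Adam9 (log2 fold change 0.64, SE 0.43), the proprotein convertase gene Furin (-0.92, SE 0.63) and its relative Pcsk7 (1.39, SE 1.05). Exons of Adam8, Adam15, Adam17, Furin, Nrd1 and Pcsk7 overlap genes on the opposite strand. Those of Nrd1 also overlap the microRNA gene Mir761 on the same strand. Adam8 and Adam12 did not enter the test.

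Grn (chromosome 11, 102430315 to 102437048, plus strand) was the most abundant of the 9 genes in every library. It was at 733, 281.5, 338 and 229 CPM in HFD replicates 5 to 8, against 279.7, 296, 283 and 213 CPM in chow replicates 1 to 4. HFD replicates 5 and 7 exceeded every chow library, replicates 6 and 8 lay within the chow range, and HFD replicate 5 was more than 2 times any other library. The means were 395 ± 229 CPM in HFD and 268 ± 37.1 CPM in chow (SD, n = 4 each), from 903 to 3690 counts per library. The edgeR log2 fold change was 0.56 (SE 0.29, 95% interval -0.04 to 1.16, adjusted p = 0.937). Without HFD replicate 5 it was 0.08 (SE 0.23, adjusted p = 0.998), so most of the difference came from 1 library. With the stellate, fibroblast and pericyte sum as a covariate the Grn log2 fold change was -0.03 (SE 0.42, adjusted p = 0.999). That sum was itself 106 to 461 CPM in HFD and 24.04 to 138 CPM in chow. The fit thus cannot separate diet from the content of those cells, and the part of those cells in Grn was not tested. Exons of Grn overlap those of Fam171a2 on the opposite strand.

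Grn stood at rank 200 of the 10129 tested genes by mean CPM per kb over all libraries, while Pdgfb was at rank 4339, Pdgfa at 5764, Vegfb at 6856, Vegfa at 8566 and Pdgfc at 8709. Its level was 114 ± 66.0 CPM per kb in HFD and 77.1 ± 10.7 CPM per kb in chow (SD, n = 4 each). Of the summed level per kb of the 6 tested genes, Grn made up 86.5% to 89.5% in HFD libraries and 75.9% to 85.7% in chow libraries; a share also moves with the levels of the 5 other genes. The spread of Grn was wide for its level. Its SD of log2(CPM + 1) over the 8 libraries was 0.55, above the 90th percentile of 0.50 and the median of 0.32 among the 596 tested genes with a mean of 200 to 500 CPM. Among the lower genes, Pdgfa had an SD of 0.98 against a median of 1.20 at 10 to 20 CPM, while Pdgfc (1.74), Vegfa (1.36) and Vegfb (1.45) were above the median of 1.29 at 2 to 10 CPM.

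**Figure D3:**
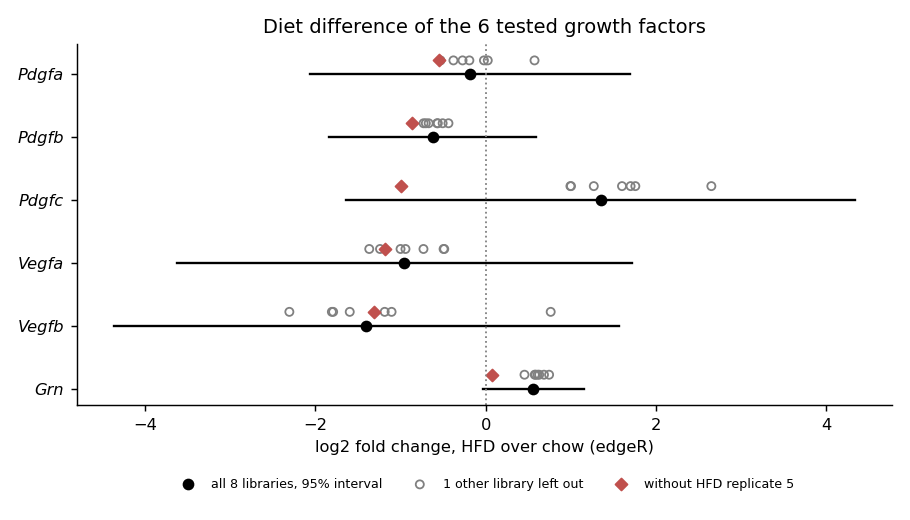
Log2 fold change, HFD over chow, of the 6 tested growth factor genes from edgeR; black points and lines give the value and 95% interval from all 8 libraries, open circles the value with 1 other library left out, and red diamonds the value without HFD replicate 5. Every interval spans 0, and without HFD replicate 5 Pdgfc moves to -0.996 and Grn to 0.08.

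The lysosomal partners of progranulin were abundant too. Psap, the prosaposin gene whose product carries progranulin to the lysosome, was at 1175 ± 67.3 CPM in HFD and 1163 ± 157 CPM in chow (SD, n = 4 each), a log2 fold change of 0.01 (SE 0.14). Sort1, the sortilin receptor that takes up progranulin, was low, at 14.4 ± 8.35 CPM in HFD and 9.54 ± 5.74 CPM in chow (SD, n = 4 each); it was added to the genes chosen by rule after its values were seen. Ctsd, a protease linked to granulin processing, was at 581, 679, 488 and 309.7 CPM in HFD replicates 5 to 8, against 310.5, 237, 187 and 331 CPM in chow replicates 1 to 4. HFD replicates 5 to 7 exceeded every chow library and HFD replicate 8 did not. The log2 fold change of 0.95 (SE 0.24) did not pass (edgeR adjusted p = 0.585), and reads of Ctsd may be shared with the gene model Gm49369 on the same strand. Ctsb, another lysosomal protease gene, was at 1459 ± 396 CPM in HFD and 1083 ± 104 CPM in chow (SD, n = 4 each; log2 fold change 0.43, SE 0.17, edgeR adjusted p = 0.810). Lrp1, an endocytic receptor that takes up prosaposin with progranulin, was at 368 ± 129 CPM in HFD and 243 ± 95.2 CPM in chow (SD, n = 4 each; log2 fold change 0.60, SE 0.29, edgeR adjusted p = 0.935). Of the 13 tested genes of this list 0 passed, 9 were above 0 and 4 below, and the median log2 fold change was 0.11, against -0.02 over all tested genes.

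**Figure D4:**
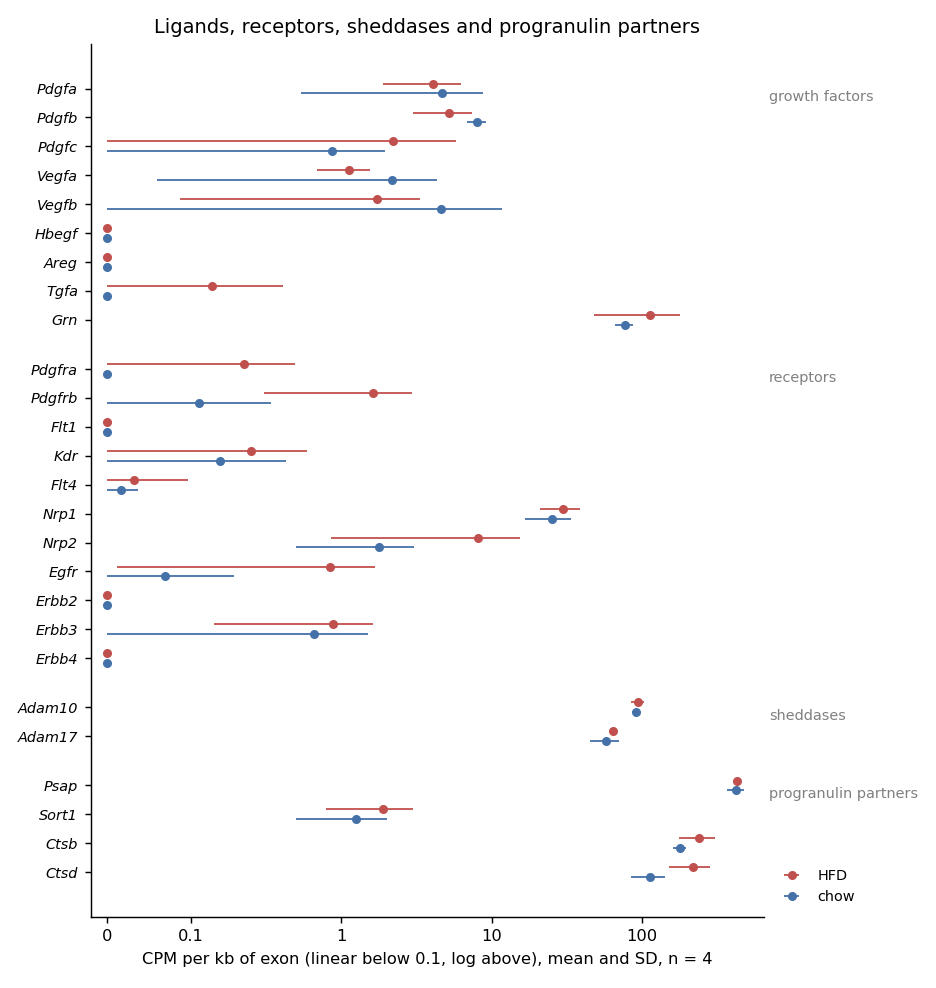
Mean CPM per kb of exon with its SD (n = 4 libraries per diet) for the 9 growth factor genes, their receptors, sheddases and progranulin partners, with HFD in red above chow in blue; the axis is linear below 0.1 and logarithmic above, and bars that would go below 0 end at 0. Grn, at 114 CPM per kb in HFD and 77.1 in chow, lies near the sheddases and lysosomal partners, while Hbegf, Areg, Flt1, Erbb2 and Erbb4 are at 0.

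Genes known to sit upstream or downstream of the growth factors did not differ between the diets past the threshold either. Of the 19 tested hypoxia genes, the list that holds regulators of Vegfa, 0 passed, with 7 above 0, 12 below and a median log2 fold change of -0.22, against -0.02 over all tested genes. The glucose transporter gene Slc2a1 had the smallest p of that list, at 1.19, 2.78, 5.69 and 1.21 CPM in HFD replicates 5 to 8, against 8.99, 10.1, 56.4 and 6.37 CPM in chow replicates 1 to 4. Every HFD library lay below every chow library, and 3.39% of all tested genes were without overlap in either direction. A gene named for a small p is more likely to be among them. The log2 fold change of Slc2a1, -2.90 (SE 1.07), did not pass (edgeR adjusted p = 0.752). Hmox1, heme oxygenase 1, was at 73.4 ± 44.9 CPM in HFD and 39.0 ± 5.87 CPM in chow, and the histone demethylase gene Kdm3a at 114 ± 36.2 CPM in HFD and 82.2 ± 12.3 CPM in chow (SD, n = 4 each). Arnt, the partner of the HIF alpha subunits, was at 136 ± 55.9 CPM in HFD and 145 ± 116 CPM in chow, and the lactate dehydrogenase gene Ldha at 98.7 ± 45.8 CPM in HFD and 108 ± 17.2 CPM in chow (SD, n = 4 each).

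Transcripts induced within minutes of growth factor or stress signals were compared as well. Of the 20 tested immediate-early and stress genes 0 passed, with 14 above 0, 6 below and a median log2 fold change of 0.21. Myc was at 36.7, 41.8, 75.2 and 44.4 CPM in HFD replicates 5 to 8, against 26.7, 11.2, 10.4 and 20.3 CPM in chow replicates 1 to 4. Its log2 fold change was 1.53 (SE 0.56, edgeR adjusted p = 0.752), and the diets did not overlap, as for 3.39% of all tested genes. Egr1 was at 40.1 ± 14.3 CPM in HFD and 12.6 ± 9.98 CPM in chow (SD, n = 4 each; log2 fold change 1.67, SE 0.71, edgeR adjusted p = 0.888). The heat shock gene Dnajb1 was at 65.5 ± 20.9 CPM in HFD and 121 ± 56.4 CPM in chow (SD, n = 4 each; log2 fold change -0.89, SE 0.39, edgeR adjusted p = 0.893). Klf6, the most abundant of the list, was at 578 ± 147 CPM in HFD and 577 ± 159 CPM in chow, with Zfp36 at 154 ± 78.7 CPM in HFD and 207 ± 78.8 CPM in chow and Ier5 at 95.7 ± 21.3 CPM in HFD and 95.1 ± 39.4 CPM in chow (SD, n = 4 each). Cell isolation can itself induce these genes. The list summed to 1041 to 1706 CPM in HFD and 1304 to 1421 CPM in chow, and with that sum as a covariate the log2 fold changes of the 6 growth factor genes kept their signs. Of the 9 tested ERK feedback targets, which report on signalling below the receptors, 0 passed, with 6 above 0, 3 below and a median of 0.12. Dusp6, an ERK phosphatase gene, was at 85.7 ± 36.7 CPM in HFD and 101 ± 21.3 CPM in chow, and Spred1 at 291 ± 40.1 CPM in HFD and 273 ± 54.4 CPM in chow (SD, n = 4 each). The remaining genes named by p, Phlda1 (log2 fold change 1.57, SE 1.43) and Mafg (0.93, SE 0.72), were low, and reads of Mafg may be shared with Sirt7 on the same strand.

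The tested genes with the most similar profile over the 8 libraries were listed for Pdgfa, Pdgfb and Grn, by the root mean square difference of centred log2(CPM + 1). For Grn they were Map2k2 (0.24), Bcl9 (0.25) and Flna (0.26), against a median difference of 0.85 over the 7333 genes compared. Genes close to Pdgfb included Kcnj10 (0.24) and Ppip5k2 (0.25), against a median of 0.86. For Pdgfa the closest were Gm26624 (0.27), Stard3 (0.29) and Pofut1 (0.32), against a median of 1.14. These likenesses describe 8 libraries that share preparation and diet groups, and they carry no test.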

How the data were processed

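Libraries were made from 500 pg of column-purified RNA with the Ovation RNA-Seq System V2, per the labels' protocols. Reads were processed with FastQC, Trim Galore and STAR on GRCm38, per the submitters' processing notes. Versions, the counting program, its strand setting and the annotation were not given in the sources used here. Expected counts per gene were deposited by the authors, not scaled between libraries; 7.66% to 8.32% of the values above 0 were not whole, and all were rounded before testing. Of the 48440 identifiers 48058 were found in GENCODE M21, which gave coordinates and merged exon lengths.

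All genes kept by filterByExpr entered the edgeR 4.0.16 quasi-likelihood test (TMM scaling, robust fit, diet as the only term, two-sided, Benjamini-Hochberg adjustment at 0.05) in R 4.3.3. Levels (CPM) are counts over the TMM-scaled totals of the kept genes. Intervals are at 95%. The step was tested on simulated data. The alternatives comprised 3 scalings, 2 filters, DESeq2 1.42.0, limma-voom (limma 3.58.1), a fit that was not robust, 4 covariates and each library left out. Nothing says that the pools of 1 diet came from separate cohorts, so p-values measure the spread between these libraries.

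The growth factor genes, the 11 pathway lists and the 17 cell type lists were chosen with earlier results of these data known, and lists are described by counts and medians only. Of 359 list symbols, 2 were older or newer names of genes found under their other name. Besides all 9 growth factor genes and the receptors, each pathway list gave the 3 tested genes with the smallest p and the 3 with the highest mean CPM per kb. For likeness, tested genes with a mean of at least 10 CPM were compared over 8 libraries. Some genes that these rules select are not reported here.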

Additional observations from a re-analysis of the deposited data

Results flagged for a closer look

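In 13 of the 102 groups of 4 libraries examined, over 61 genes of the ligand, receptor and regulator lists, 1 library stood far from the other 3 by Dixon's gap ratio; chance flags about 1 in 20 groups of normally distributed values. In 6 of the 13 the other 3 libraries were at 0, which fixes the ratio at its highest value, so the number flagged is no comparison with chance. Of the 13 growth factor groups 3 were among them. Pdgfc was at 38.7 CPM in HFD replicate 5, against 0 to 4.85 CPM in the other HFD libraries. Tgfa was at 3.58 CPM in HFD replicate 5 and 0 in the other HFD libraries. Vegfb was at 24.5 CPM in chow replicate 3, against 0.225 to 4.25 CPM in the other chow libraries. The part of other cell types in the level of a single library was not tested.

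The genes Vegfc and Kdm3a also stood out in HFD replicate 5, Vegfc at 8.14 CPM with the other HFD libraries at 0, and Kdm3a at 168 CPM against 90.6 to 102 CPM. In HFD replicate 8 Pgf was at 6.23 CPM, and in HFD replicate 7 Flt4 was at 1.05 CPM, each with the other HFD libraries at 0. In chow replicate 3 Pdgfrb was at 2.49 CPM with the other chow libraries at 0, Egfr at 2.90 CPM against 0 to 0.236 CPM, and Slc2a1 at 56.4 CPM against 6.37 to 10.1 CPM. Kdr was at 5.15 CPM in chow replicate 2, against 0 to 0.236 CPM in the other chow libraries. Arnt was at 317 CPM in chow replicate 1, against 59.5 to 102 CPM. Lrig3 was at 1.42 CPM in chow replicate 4 and at 0 in the other chow libraries.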

How the results depend on the processing

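None of the 6 tested growth factor genes passed the threshold under any of the alternatives tried. No paired analysis was possible because the replicate numbers, 5 to 8 in HFD and 1 to 4 in chow, are not shared between the diets. Pdgfb and Vegfa kept their direction under all 20 alternatives, but the size of the Vegfa log2 fold change, -0.95, moved to -0.12 with limma-voom, -1.85 with the pan-endocrine covariate and -2.98 with the stellate covariate, and ranged from -1.37 to -0.49 with each library left out, the smallest without chow replicate 2 (-0.486) and chow replicate 4 (-0.494). The log2 fold change of Pdgfa turned to 0.23 with limma-voom, 0.66 with the stellate covariate and 1.61 with the pan-endocrine covariate, and ranged from -0.55 to 0.57 with each library left out. Pdgfc was 0.02 with limma-voom and 3.65 (SE 1.69) with the pan-endocrine covariate, and ranged from -0.996 to 2.65 with each library left out. Vegfb turned to 0.0371 with limma-voom, was -2.53 with the pan-endocrine covariate and -3.22 with the stellate covariate, and ranged from -2.31 to 0.76 with each library left out. Grn turned to -0.0280 with the stellate covariate and ranged from 0.08 to 0.75 with each library left out. The causes were not tested. Pdgfc and Vegfb had no value under the filter of 5 CPM in 4 libraries, which fewer genes pass. The 3 other scalings reversed none of the 6 and moved the median of all genes by at most 0.07. The number of genes called, 0 with edgeR and 542 at an unadjusted p under 0.05, was 45 of 17969 with no filter, 28 with DESeq2, 1 with limma-voom, 1 with the endothelial covariate, and 0 to 11 with each library left out, the 11 without HFD replicate 8. Counting error is largest for the lowest counts, as few as 1 for Vegfb and 0 for Vegfa in chow replicate 1.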

Other observations

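Other secreted growth factors set the 9 genes in context. Of 27 listed, 10 had 0 counts in all 8 libraries and 8 could be tested; 0 passed the threshold, with 3 above 0, 5 below and a median log2 fold change of -0.69, against -0.02 over all tested genes. Igf1, insulin-like growth factor 1, had the smallest p of all tested genes and was at 293, 124, 169 and 31.9 CPM in HFD replicates 5 to 8, against 14.4, 22.6, 21.1 and 15.3 CPM in chow replicates 1 to 4 (log2 fold change 3.07, SE 0.51, edgeR adjusted p = 0.0837). Its order within HFD, with replicate 5 highest and replicate 8 lowest, was also that of Grn. The stellate, fibroblast and pericyte sums were 461, 291, 245.5 and 106 CPM in HFD replicates 5 to 8. Replicate 6 was thus above replicate 7 for these sums and below it for Igf1 and Grn. A link between the 3 was not tested. Osm, the gp130 cytokine oncostatin M, was at 4.17, 8.16, 6.74 and 20.3 CPM in HFD replicates 5 to 8, against 0.225, 0.156, 0 and 0.472 CPM in chow replicates 1 to 4. Its log2 fold change was 5.40 (SE 1.49, edgeR adjusted p = 0.647), and the diets did not overlap, as for 3.39% of all tested genes. Fgf2, a fibroblast growth factor that overlaps Nudt6 on the opposite strand, was at 88.1 ± 33.99 CPM in HFD and 153 ± 90.3 CPM in chow, Tgfb1 at 51.3 ± 21.0 CPM in HFD and 77.0 ± 72.7 CPM in chow, and Gdf3 at 15.0 ± 11.05 CPM in HFD and 28.9 ± 19.5 CPM in chow (SD, n = 4 each). Per kb of exon, none of the 5 reached the level of Grn in either diet.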
